A study of Saccharomyces cerevisiae with 12 samples.

Results

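The genes described here encode the DNA replication machinery of Saccharomyces cerevisiae: the proteins that mark replication origins, load and start the replicative helicase, and copy the DNA behind it. They were taken by standard gene name from a list of 43 names and not by a measured value. Earlier results of these data were known when the list was chosen. Of the 43 names, 41 were found among the 5798 open reading frames (ORFs) with poly(A) profiles. The 2 absent names, CDC46 and CDC47, are other names of MCM5 and MCM7, which are both among the 41. The 41 genes lie on 14 chromosomes, 25 of them on the plus strand, and their start and end were the same in the profiles and in the R64 assembly of the reference strain S288C.

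Poly(A) sites were mapped by 3′ READS, which sequences the ends of polyadenylated RNA fragments. Cells of the rpb4Δ strain (RPB4::HIS3) and of the ubp8Δ strain (UBP8::HIS3) were analyzed, and both strains also carried the C-terminal tag RPB3-3xFLAG with a NAT marker. Rpb4 is a subunit of RNA polymerase II, and Ubp8 removes ubiquitin from histones as a part of SAGA, a coactivator of transcription. Cultures were grown in rich medium (YPD) at 30 °C to mid-log phase, so all stages of the cell cycle were mixed. The authors sequenced 2 biological replicates per strain and merged their reads, so that each strain has 1 profile. The values therefore have no replicate error, no test between the strains was possible, and all intervals and standard errors below cover counting error only. Wild-type cells were not analyzed here by this method, so a difference between the strains cannot be assigned to either deletion.

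Replication starts when the origin recognition complex (ORC) and Cdc6 place the ring-shaped MCM complex on DNA in G1 phase. Sld3, Sld2 and Dpb11 then help to bring Cdc45 and the GINS complex to the MCM ring, and Mcm10 helps to start the helicase. Polymerase α-primase makes the primers, polymerases ε and δ extend them, the RFC complex loads the sliding clamp PCNA, and replication protein A (RPA) covers the single-stranded DNA. Transcription of many of these genes in budding yeast is known to peak near the start of S phase. Their mRNAs, like other yeast mRNAs, are cleaved at clusters of sites downstream of AU-rich elements, and each cleaved end receives a poly(A) tail.

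Levels are given as RPM, the read number scaled to library size, and cover the 400 nt after the stop codon. One polyadenylated end counts once whatever the length of the transcript, so these levels were not divided by length. A read was worth 0.395 RPM in rpb4Δ and 0.0614 RPM in ubp8Δ, which corresponds to 2529381 reads in rpb4Δ and 16276165 reads in ubp8Δ. In rpb4Δ the window of the median ORF held 78 reads, against 474 reads in ubp8Δ. As a check of the labels, no read fell in the RPB4 ORF in rpb4Δ, against 244 reads in ubp8Δ, and 12 reads fell in the UBP8 ORF in rpb4Δ, against 0 in ubp8Δ. The RNA fragments were amplified by PCR without molecular identifiers, so reads are not independent molecules. At the 31 replication genes with at least 20 window reads in both strains, 205 positions held 5 or more reads in rpb4Δ, and 37 of these (18.0%) held none in the deeper ubp8Δ profile. This share was 12.5% over all ORFs with the same minimum. At the depth of ubp8Δ, 5 reads in rpb4Δ correspond to 33 reads, rounded up. In the same genes 180 positions held 33 or more reads in ubp8Δ, and 30 of these (16.7%) held none in rpb4Δ, beside 16.2% over all ORFs.

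The replication genes had reads at moderate levels in both strains. The median of the 41 genes was 27.7 RPM in rpb4Δ (70 reads) and 21.5 RPM in ubp8Δ (350 reads). The median over all ORFs was 30.8 RPM in rpb4Δ and 29.1 RPM in ubp8Δ. No replication gene was without reads in either strain, and the levels ran from 0.40 to 140.0 RPM in rpb4Δ and from 0.61 to 136 RPM in ubp8Δ. Subunits of one complex thus differed widely in level, as the plot of levels by complex shows. Only reads with a unique match of 17 bases were kept. In 37 of the 41 windows some positions end a stretch of 17 bases with further copies in R64, up to 25 positions in MCM6. Reads there could be missing, and the effect on levels was not tested.

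**Figure D1:**
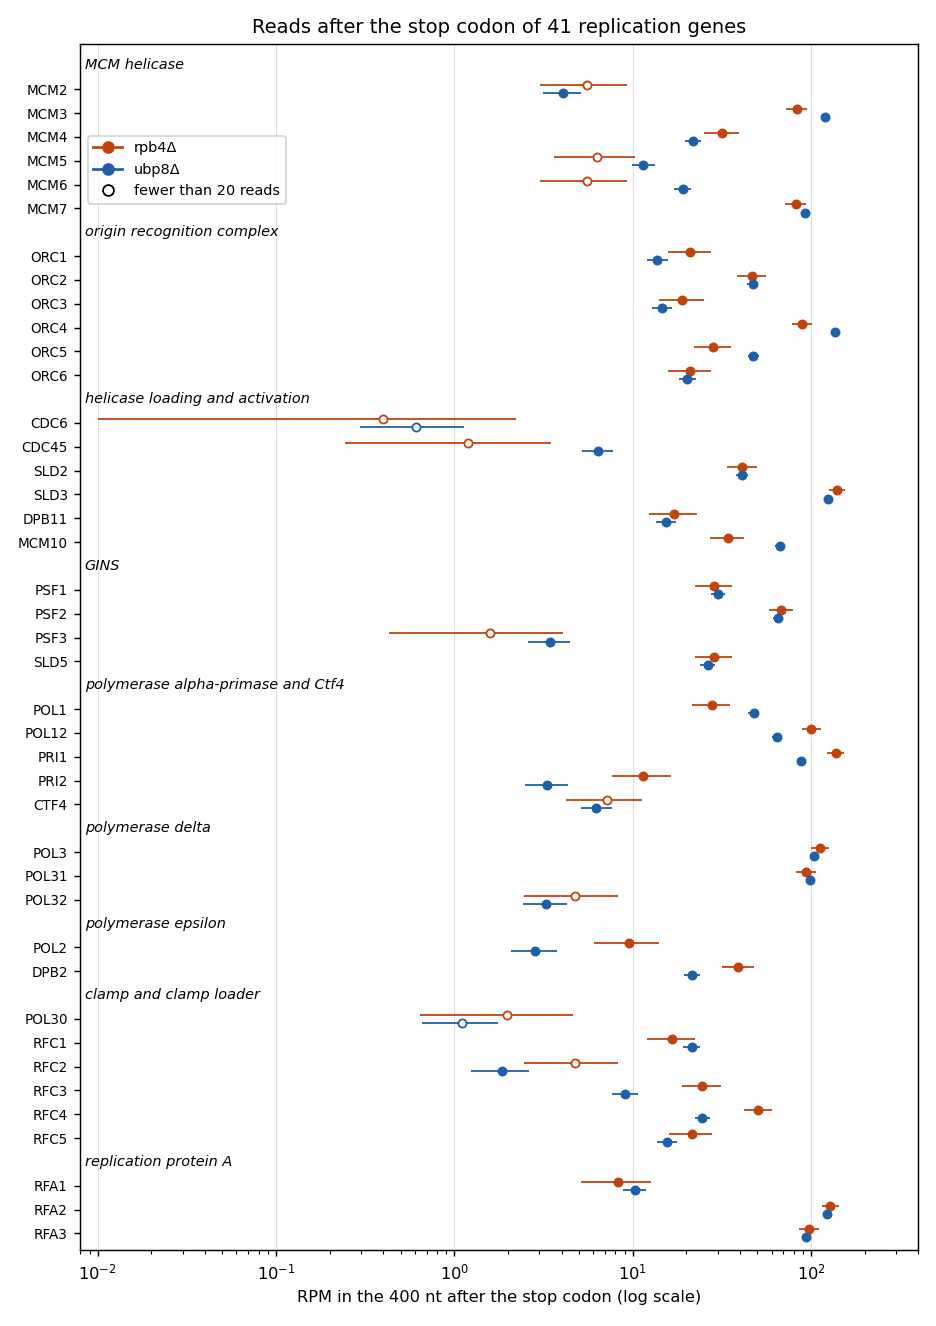
RPM in the 400 nt after the stop codon (log axis) of the 41 replication genes, grouped by complex, in rpb4Δ (upper point of each pair) and ubp8Δ (lower point). Bars are exact Poisson intervals of 95%, open points have fewer than 20 reads, and the levels of MCM3 and MCM7 lie above 80 RPM in both strains while MCM2 lies below 6 RPM in both.

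Among the genes that mark origins, ORC4 was the highest, with 89.3 RPM in rpb4Δ and 136 RPM in ubp8Δ. ORC1, whose product binds ATP at the origin, had 20.97 RPM in rpb4Δ and 13.8 RPM in ubp8Δ. ORC2 had 46.6 RPM in rpb4Δ and 47.0 RPM in ubp8Δ, and ORC5 had 28.1 RPM in rpb4Δ and 47.3 RPM in ubp8Δ. ORC3 had 19.0 RPM in rpb4Δ and 14.7 RPM in ubp8Δ, and ORC6 had 20.96 RPM in rpb4Δ and 20.3 RPM in ubp8Δ. All 6 ORC genes passed the minimum of 20 reads in both strains.

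The MCM genes, which encode the 6 subunits of the helicase ring, ran from high levels (MCM3 and MCM7) to low ones, with MCM4 in between. MCM3 had 83.4 RPM in rpb4Δ (95% interval 72.5 to 95.5) and 119 RPM in ubp8Δ (114 to 125). MCM7 had 81.8 RPM in rpb4Δ and 92.7 RPM in ubp8Δ, and MCM4 had 31.7 RPM in rpb4Δ and 21.7 RPM in ubp8Δ. The other 3 subunits were low: MCM2 had 5.55 RPM in rpb4Δ and 4.05 RPM in ubp8Δ, MCM5 had 6.34 RPM in rpb4Δ and 11.5 RPM in ubp8Δ, and MCM6 had 5.57 RPM in rpb4Δ and 19.1 RPM in ubp8Δ. The high and low sets are apart by more than the counting intervals in both strains, except that MCM4 and MCM6 lie close to each other in ubp8Δ. These are levels of reads after the stop codon, and many reads of the low set ended inside the ORF, as given below.

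The genes that load and activate the helicase held both the highest and the lowest level of all 41 in rpb4Δ, and the lowest level in ubp8Δ, where ORC4 was the highest. SLD3, whose product brings Cdc45 to the MCM ring, had 140.0 RPM in rpb4Δ (354 reads) and 125 RPM in ubp8Δ (2031 reads). CDC6, the loader that acts with ORC, had 1 read in rpb4Δ (0.40 RPM) and 10 reads in ubp8Δ (0.61 RPM). CDC45, a subunit of the active helicase, was also near the bottom, with 3 reads in rpb4Δ and 104 reads in ubp8Δ. SLD2 had 41.1 RPM in rpb4Δ and 40.8 RPM in ubp8Δ, and DPB11, whose product joins Sld2 and Sld3, had 17 RPM in rpb4Δ and 15.4 RPM in ubp8Δ. MCM10 had 34.0 RPM in rpb4Δ and 67.0 RPM in ubp8Δ. Of the GINS genes, PSF2 had 68.0 RPM in rpb4Δ and 65.4 RPM in ubp8Δ, and PSF1 and SLD5 had 28.5 RPM each in rpb4Δ and 30.0 and 26.3 RPM in ubp8Δ. PSF3 was far lower, with 1.59 RPM in rpb4Δ (4 reads) and 3.45 RPM in ubp8Δ (56 reads).

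Among the polymerase genes, the window levels of the catalytic subunits differed by more than 10-fold. POL3, the catalytic subunit of polymerase δ, had 113 RPM in rpb4Δ and 104 RPM in ubp8Δ. POL1, that of polymerase α, had 27.7 RPM in rpb4Δ and 47.7 RPM in ubp8Δ. POL2, that of polymerase ε, had 9.50 RPM in rpb4Δ (24 reads) and 2.83 RPM in ubp8Δ (46 reads). The accessory subunits POL12 and POL31 had 100.4 and 94.1 RPM in rpb4Δ and 64.2 and 98.0 RPM in ubp8Δ, and DPB2 of polymerase ε had 39.2 RPM in rpb4Δ and 21.5 RPM in ubp8Δ. POL32, the smallest subunit of polymerase δ, had 4.74 RPM in rpb4Δ and 3.26 RPM in ubp8Δ. The primase pair was unequal: PRI1, the catalytic subunit, had 137 RPM in rpb4Δ and 87.8 RPM in ubp8Δ, and PRI2 had 11.5 RPM in rpb4Δ and 3.32 RPM in ubp8Δ. CTF4, which links polymerase α to the helicase, had 7.13 RPM in rpb4Δ and 6.25 RPM in ubp8Δ.

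POL30, the single gene for PCNA, had 1.98 RPM in rpb4Δ (5 reads) and 1.11 RPM in ubp8Δ (18 reads). The clamp loader genes were higher, from 4.74 RPM (RFC2) to 50.6 RPM (RFC4) in rpb4Δ and from 1.84 RPM (RFC2) to 24.6 RPM (RFC4) in ubp8Δ. POL30 and RFC5 face each other on chromosome II with 160 nt between their stop codons, so their transcripts end in the same short interval from opposite strands. Of the RPA genes, RFA2 had 128 RPM in rpb4Δ and 123 RPM in ubp8Δ, and RFA3 had 97.3 RPM in rpb4Δ and 93.8 RPM in ubp8Δ. RFA1, the largest subunit, had 8.30 RPM in rpb4Δ (21 reads) and 10.3 RPM in ubp8Δ (167 reads). The range of window levels within RPA was therefore more than 10-fold in rpb4Δ and in ubp8Δ, larger than any difference between the strains in these 3 genes. In ubp8Δ another 5.34 RPM of RFA1 lay inside its ORF, against 1.04 RPM of RFA2.

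Between the strains, most replication genes differed little in level. In a bulk culture, fewer cells at the stage that transcribes a gene and less mRNA per cell cannot be told apart. For 31 of the 41 genes both windows held at least 20 reads, and the log2 ratio of rpb4Δ over ubp8Δ was taken for these. Its median was 0.06 (95% order-statistic interval -0.06 to 0.45), beside 0.15 over the 4248 ORFs with the same minimum. The ratio was above 0 for 20 genes and below 0 for 11, but above 0 for 12 and below 0 for 19 once centred on the median of all ORFs. With a 2-fold difference as the limit, 4 of the 31 genes (12.9%) were higher in rpb4Δ, beside 19.0% of all ORFs. No gene of the 31 was 2-fold lower in rpb4Δ, beside 11.4% of all ORFs. The minimum of 20 reads acted on rpb4Δ, the shallower profile: all 10 genes it removed were below 20 reads there, and 2 of them also in ubp8Δ. With at least 1 read in both strains, 3 of the 41 genes were 2-fold lower in rpb4Δ, beside 17.7% of all ORFs with that minimum. At the same minimum 5 genes were 2-fold higher, beside 18.9% of all ORFs. The 3 lower genes were CDC45, MCM6 and PSF3.

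The 4 genes above the limit belonged to the clamp loader and to the polymerases. PRI2, the large primase subunit, had 11.5 RPM in rpb4Δ and 3.32 RPM in ubp8Δ, a log2 ratio of 1.79 ± 0.33 (counting SE). POL2 had 9.50 RPM in rpb4Δ and 2.83 RPM in ubp8Δ, a ratio of 1.75 ± 0.36. RFC3 had 24.5 RPM in rpb4Δ and 9.09 RPM in ubp8Δ, a ratio of 1.43 ± 0.22. RFC4 had 50.6 RPM in rpb4Δ and 24.6 RPM in ubp8Δ, a ratio of 1.04 ± 0.15. The ratio of POL2 depended on the part of the gene that was counted, since with reads inside the ORF added it was -0.72. The 2 genes that stay above the limit with at least 50 reads in both strains are RFC3 and RFC4.

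The 4 small subunits of the clamp loader all had higher window levels in rpb4Δ. RFC5 had a log2 ratio of 0.45 ± 0.22 (95% counting interval 0.0005 to 0.88), and RFC2, which was below the minimum of 20 reads in rpb4Δ, had 4.74 RPM in rpb4Δ (12 reads) and 1.84 RPM in ubp8Δ (30 reads). Inside the ORF, RFC5 had no read in rpb4Δ and 4.73 RPM in ubp8Δ, while RFC2 had 5.54 RPM in rpb4Δ and 1.28 RPM in ubp8Δ. RFC1, the large subunit, had 16.6 RPM in rpb4Δ and 21.4 RPM in ubp8Δ, a ratio of -0.37 ± 0.24. Another 3 genes of the polymerases were above 0 by more than the 95% counting interval: DPB2 (0.87 ± 0.16), POL12 (0.65 ± 0.10) and PRI1 (0.64 ± 0.09).

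At the other end were MCM10, POL1, ORC5 and ORC4. MCM10 had 34.0 RPM in rpb4Δ (95% interval 27.2 to 42.0) and 67.0 RPM in ubp8Δ (63.1 to 71.1), a log2 ratio of -0.98 ± 0.16. POL1 had a ratio of -0.78 ± 0.18, ORC5 of -0.75 ± 0.18 and ORC4 of -0.61 ± 0.10, and MCM3 followed with -0.52 ± 0.10. These 5 genes are the only ones of the 31 whose 95% counting interval lies below 0. The interval lay above 0 for 10 genes, and for the other 16 it held 0. Thus POL1 was lower in rpb4Δ while the other 3 subunits of polymerase α-primase were higher there. The share of all ORFs with such intervals is not given here, and the intervals were not centred on the median of all ORFs. Scaled to the median of all ORFs, which lowers every ratio by 0.15, MCM10 passed the 2-fold limit and RFC4 no longer did.

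**Figure D2:**
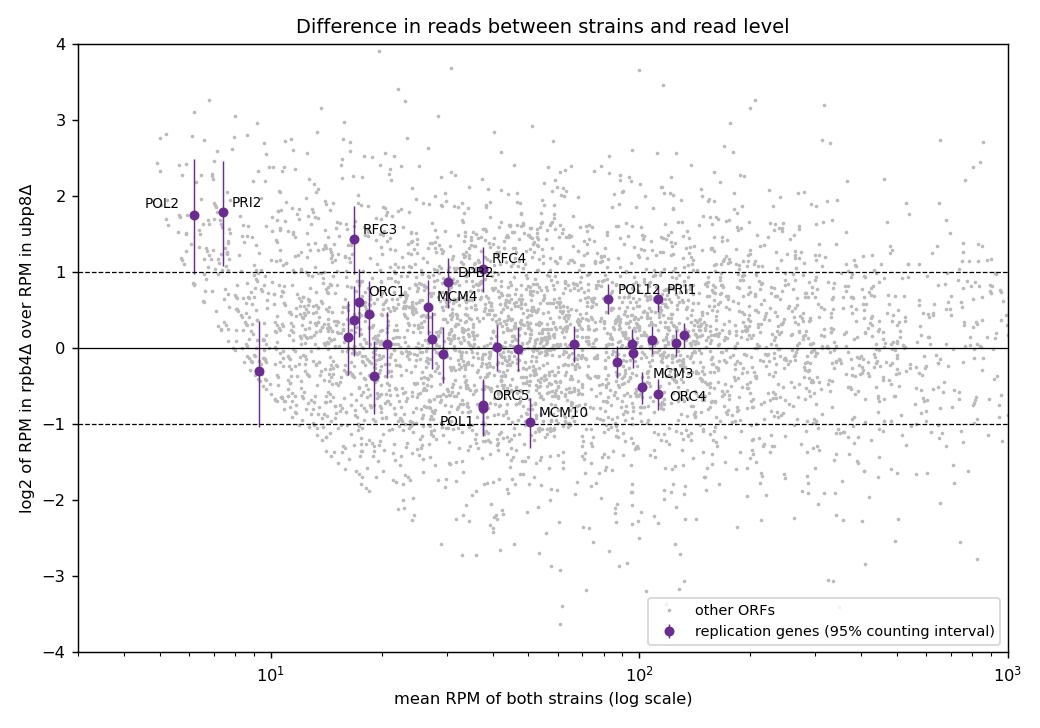
Log2 of RPM in rpb4Δ over RPM in ubp8Δ against the mean RPM of both strains (log axis) for the 31 replication genes with at least 20 reads in both strains (purple, with 95% counting intervals) and for 4089 other ORFs with that minimum (grey), while 128 others lie outside the axes. Dashed lines mark 2-fold differences: PRI2, POL2, RFC3 and RFC4 lie on or above the upper line, and MCM10 lies just above the lower one.

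The median position of polyadenylation was nearer the stop codon over the 31 replication genes than over all ORFs, while single genes spread widely. The weighted average position, the mean distance of reads from the stop codon, had a median of 94.0 nt in rpb4Δ and 103 nt in ubp8Δ over the 31 genes, against 122 nt in rpb4Δ and 123 nt in ubp8Δ over all ORFs. It ranged from 43.5 nt (RFC4) to 233 nt (SLD3) in rpb4Δ and from 48.4 nt (DPB2) to 260 nt (POL2) in ubp8Δ. No interval was taken for these medians. Over 17 other replication genes, described at the end, the median was 120 nt in rpb4Δ and 121 nt in ubp8Δ, close to that of all ORFs. Within complexes, the 3 MCM genes with enough reads all ended far from the stop codon, at 184 nt (MCM3), 180 nt (MCM4) and 176 nt (MCM7) in rpb4Δ and 187, 189 and 173 nt in ubp8Δ. The clamp loader genes RFC3, RFC4 and RFC5 ended near it, at 70.1, 43.5 and 62.8 nt in rpb4Δ and 72.1, 49.0 and 58.9 nt in ubp8Δ, whereas RFC1 ended at 188 nt in rpb4Δ and 191 nt in ubp8Δ.

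The position of the mean end did not move in one direction between the strains. The median difference, rpb4Δ minus ubp8Δ, was -1.98 nt (95% order-statistic interval -8.92 to 4.29), and over all ORFs it was -0.57 nt. In 8 of 31 genes (25.8%) the average lay at least 10 nt upstream in rpb4Δ, beside 20.9% of all ORFs. In another 8 (25.8%) it lay at least 10 nt downstream in rpb4Δ, beside 18.3% of all ORFs. The remaining 15 genes differed by less than 10 nt, among them all 3 MCM genes and all 4 RFC genes that could be compared. The highest single position was the same in both strains for 20 of 31 genes (64.5%), beside 60.5% of all ORFs.

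**Figure D3:**
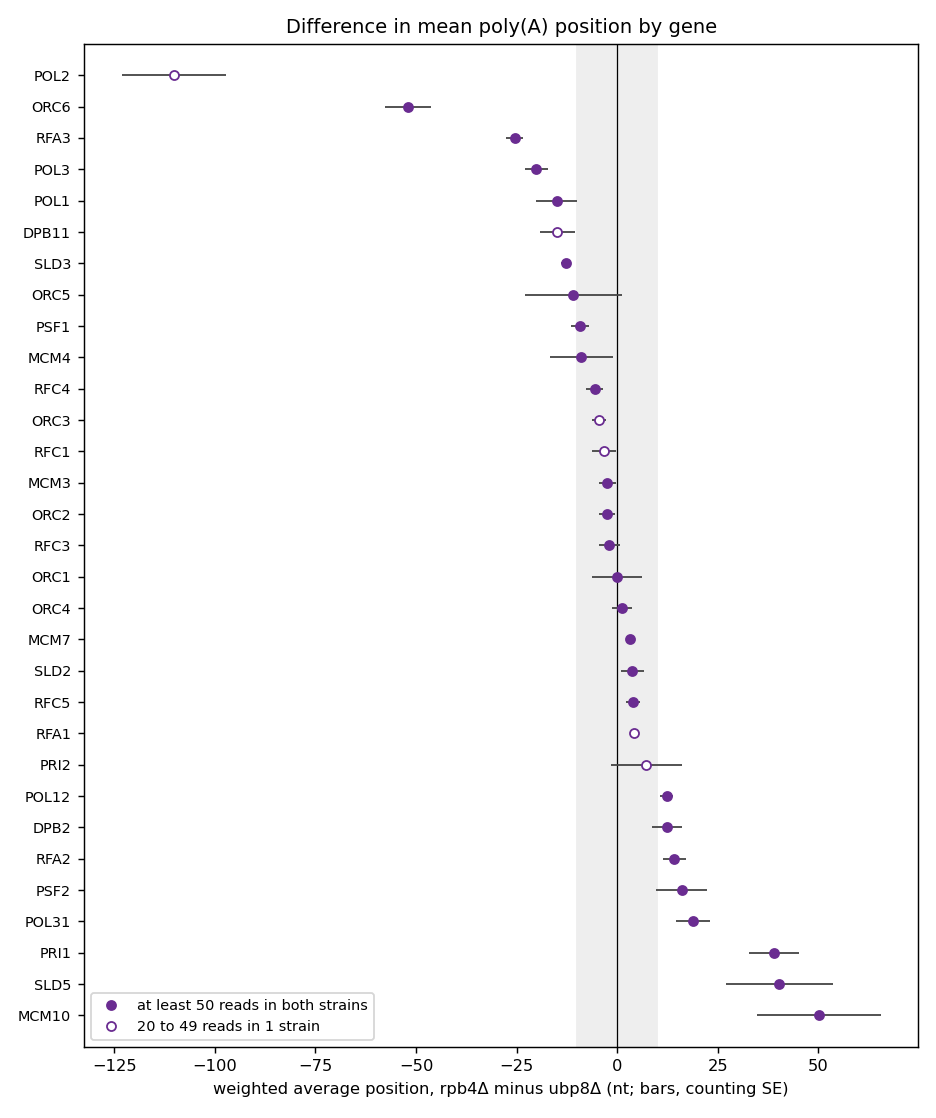
Difference in weighted average position, rpb4Δ minus ubp8Δ, in nt for the 31 replication genes, with counting SE as bars and the range of -10 to 10 nt in grey. Genes upstream in rpb4Δ are at the top, led by POL2 (-110 nt, open point) and ORC6 (-52.0 nt), and genes downstream in rpb4Δ are at the bottom, ending with MCM10 (50.2 nt).

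The sequences around the sites that carry these differences are shown for the genes with the largest shifts. Each runs from 20 nt upstream of the site to 9 nt downstream on the strand of the gene, with the mapped base in capitals, in R64 coordinates. In 74 of 82 highest positions of the 41 genes the next genomic base was an A, and since trailing As are trimmed from the reads, cleavage may have lain further downstream in that run of As.
ORC6, 73 nt, highest in rpb4Δ, chrVIII:344239-344268, minus strand: ctaaagcatgcctttagcccTataacgagc
ORC6, 283 nt, highest in ubp8Δ, chrVIII:344029-344058, minus strand: taacccgatcttcgcttgttCagatcgtgg
POL3, 109 nt, highest in rpb4Δ, chrIV:280254-280283, plus strand: tacttggaaaaatccagattCaaacaatgt
POL3, 123 nt, highest in ubp8Δ, chrIV:280268-280297, plus strand: cagattcaaacaatgtttttGaaataatgc
PRI1, 85 nt, highest in rpb4Δ, chrIX:372983-373012, minus strand: ggttcaatttttgtttagctGataacgcat
PRI1, 69 nt, highest in ubp8Δ, chrIX:372999-373028, minus strand: gactactatagcttttggttCaatttttgt
POL12, 68 nt, highest in rpb4Δ, chrII:151416-151445, minus strand: aaaagtattgttatacacctGaactatcga
POL12, 46 nt, highest in ubp8Δ, chrII:151438-151467, minus strand: ggaatagctcaaggtagcacCaaaaagtat
RFA3, 77 nt, highest in both, chrX:96075-96104, minus strand: catataataaattccatttcTaaaaaaatt
POL1, 69 nt, highest in both, chrXIV:434542-434571, plus strand: aagaaaagaatacaactgtaCatacgcatc
MCM10, 53 nt, highest in both, chrIX:60951-60980, minus strand: atggtattacttttgatggaCaatggcgcg
SLD5, 80 nt, highest in both, chrIV:1431956-1431985, plus strand: tcaagcacagtttcatttttCatctgtccg
POL31, 50 nt, highest in both, chrX:450695-450724, plus strand: atgcaattaagttttatatgTaaaagtgag

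ORC6, which encodes the smallest ORC subunit, had a far site in ubp8Δ at which rpb4Δ had no read. The ubp8Δ profile had a proximal cluster around 53 to 103 nt and a distal site at 283 nt, the second sequence above, with 78 of 330 reads (23.6%, exact binomial 95% interval 19.2 to 28.6). The rpb4Δ profile had none of its 53 reads there, for which the exact binomial 95% interval reaches up to 6.72%. In rpb4Δ the highest position was 73 nt, with 15 reads (28.3%, 16.8 to 42.3), and in ubp8Δ the same position held 16.97% (13.1 to 21.5). The weighted average was 74.8 nt in rpb4Δ and 127 nt in ubp8Δ, a difference of -52.0 ± 5.7 nt (counting SE). No other gene starts on the same strand within the ORC6 window.

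POL3 had its main sites in both strains in other proportions. Its site at 109 nt held 101 of 285 reads in rpb4Δ (35.4%, 29.9 to 41.3) and 324 of 1700 reads in ubp8Δ (19.1%, 17.2 to 21.0). The site at 123 nt, 14 nt further on, held 21.4% (16.8 to 26.6) in rpb4Δ and 25.4% (23.4 to 27.6) in ubp8Δ. Reads between 201 and 300 nt made up 15.8% in rpb4Δ and 29.8% in ubp8Δ, so the average was 139 nt in rpb4Δ and 159 nt in ubp8Δ (-20.1 ± 2.8 nt). RFA3, the smallest RPA subunit, kept its highest position at 77 nt, with 47.2% of reads in rpb4Δ and 42.4% in ubp8Δ. Reads beyond 100 nt were 0.41% in rpb4Δ and 16.7% in ubp8Δ, and the average moved by -25.4 ± 2.1 nt. POL1 likewise kept its highest position at 69 nt while the share between 101 and 200 nt was 28.6% in rpb4Δ and 55.3% in ubp8Δ (-15.1 ± 5.1 nt).

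Of the 8 genes that ended at least 10 nt further downstream in rpb4Δ, MCM10, SLD5, PRI1 and POL31 had the largest shifts. In MCM10 the cluster within 100 nt of the stop codon held 57.0% of 86 reads in rpb4Δ and 75.3% of 1091 reads in ubp8Δ, while 32.6% in rpb4Δ and 23.5% in ubp8Δ lay between 301 and 400 nt. The average was 172 nt in rpb4Δ and 122 nt in ubp8Δ (50.2 ± 15.3 nt). The next gene on that strand, ESL1, starts 319 nt downstream of the MCM10 stop codon, and 18.6% of the reads in rpb4Δ and 15.9% in ubp8Δ lay past its start. In SLD5 the main site at 80 nt held 77.8% of 72 reads in rpb4Δ and 91.8% of 429 reads in ubp8Δ. Its shift of 40.2 ± 13.3 nt rested on few reads, since a single position at 396 nt held 8 reads in rpb4Δ and none in ubp8Δ, and over positions 1 to 300 the difference was -2.01 nt.

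In PRI1 the site at 69 nt held 7.78% of reads in rpb4Δ (5.19 to 11.1) and 30.0% in ubp8Δ (27.6 to 32.4), while the site at 85 nt held 19.3% in rpb4Δ and 18.2% in ubp8Δ. PRI1 also had 16.7% of reads beyond 300 nt in rpb4Δ and 5.53% in ubp8Δ, and its average was 142 nt in rpb4Δ and 103 nt in ubp8Δ (39.0 ± 6.2 nt). As in SLD5, much of this shift rested on few distal positions. Those at 359, 375 and 393 nt held 11, 7 and 15 reads in rpb4Δ and none in the deeper ubp8Δ profile. POL12, the regulatory subunit of polymerase α, showed a similar change between neighbouring sites. The site at 68 nt held 37.8% of reads in rpb4Δ (31.8 to 44.1) and 17.9% in ubp8Δ (15.6 to 20.4), and the site at 46 nt held 27.2% in rpb4Δ (21.8 to 33.1) and 35.2% in ubp8Δ (32.3 to 38.2). POL12 was not among the 4 largest shifts (12.3 ± 1.7 nt), and its sequences were chosen after its values had been seen. POL31 moved by 18.9 ± 4.2 nt, with 8.40% of reads between 201 and 300 nt in rpb4Δ and none in ubp8Δ.

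**Figure D4:**
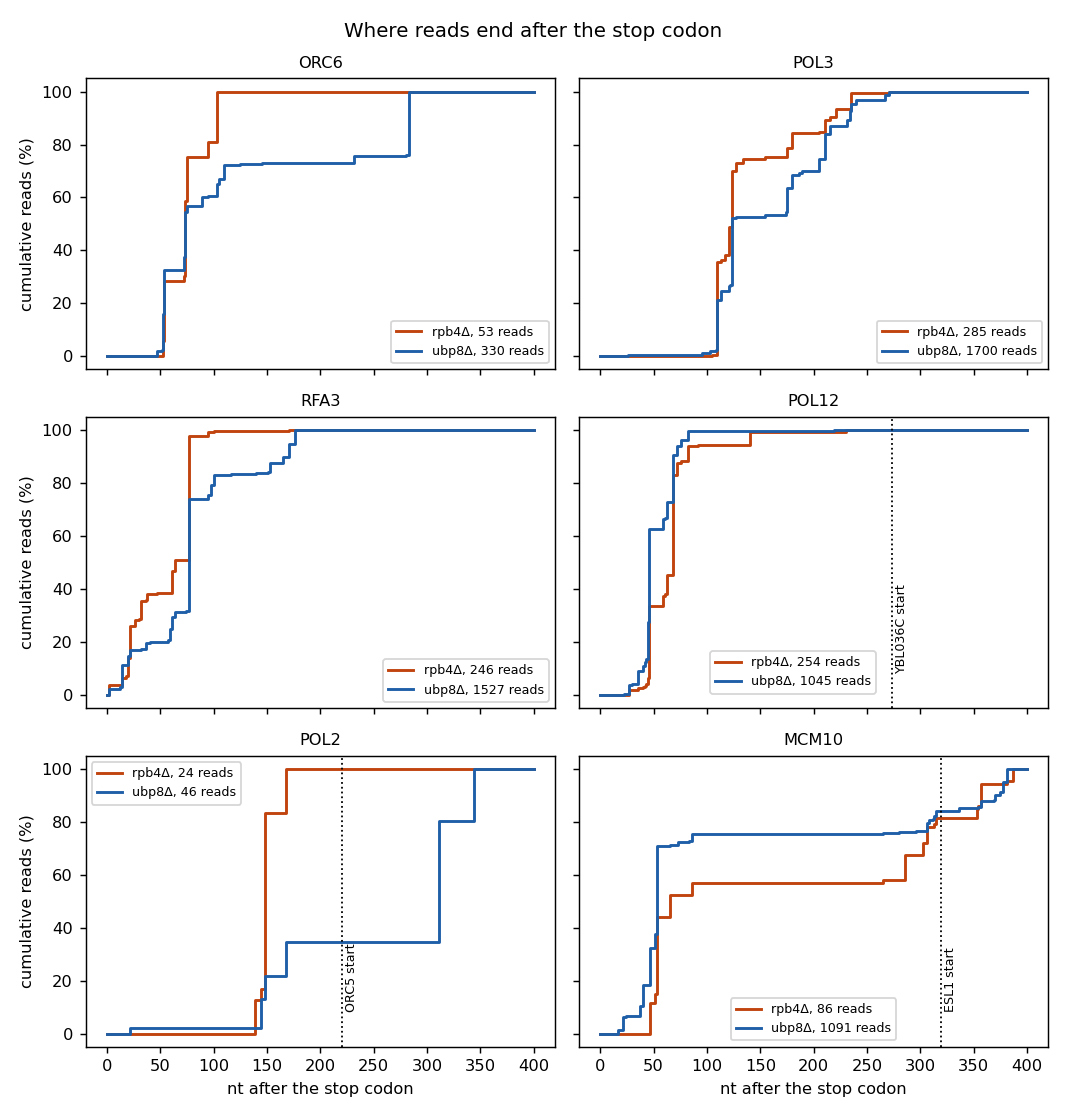
Cumulative percent of window reads against distance from the stop codon (nt) for 6 replication genes in rpb4Δ and ubp8Δ, with the number of reads in each legend and the start of the next gene on the same strand as a dotted line. In ORC6 and POL2 the ubp8Δ curve has a late step that the rpb4Δ curve lacks, and in MCM10 the rpb4Δ curve reaches 57.0% by 100 nt, against 75.3% in ubp8Δ.

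POL2 had the largest difference of all 31 genes, -110 ± 13.0 nt, from 24 reads in rpb4Δ and 46 reads in ubp8Δ. In rpb4Δ 16 of 24 reads lay at 148 nt (66.7%, 44.7 to 84.4), and no read lay past 168 nt. In ubp8Δ 21 of 46 reads lay at 311 nt (45.7%, 30.9 to 61.0). The gene downstream of POL2 on the same strand is ORC5, itself a replication gene, and its start codon lies 220 nt from the POL2 stop codon. All 30 distal reads of ubp8Δ (65.2% of the POL2 window) therefore fell inside the ORC5 coding sequence, at its nucleotides 92 and 125, and were also among the 175 reads counted inside the ORC5 ORF. The 2 sites of POL2 are printed for that reason, with the mapped base in capitals.
POL2, 148 nt, highest in rpb4Δ, chrXIV:155008-155037, plus strand: aattagcccttgaacataatTaacactctt
POL2, 311 nt, highest in ubp8Δ, inside ORC5, chrXIV:155171-155200, plus strand: tgatccagacataactccttCaaatttaat

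Of the 41 genes, 13 (31.7%) had another gene starting on the same strand within the window, beside 24.6% of all ORFs. Reads past that start exceeded 10% of a window only in POL2, MCM10 and MCM4 in ubp8Δ and only in MCM10 in rpb4Δ. With each window ended before the next gene, 30 genes could be compared, with 6 shifted upstream and 8 shifted downstream in rpb4Δ by at least 10 nt, beside 19.6% upstream and 18.0% downstream of all ORFs.

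SLD3 and MCM7 show changes in shares without a change of the highest position. In SLD3 the site at 248 nt held 29.4% of reads in rpb4Δ (24.7 to 34.4) and 62.8% in ubp8Δ (60.6 to 64.9), and the average was 233 nt in rpb4Δ and 246 nt in ubp8Δ (-12.8 ± 1.2 nt). In MCM7 the site at 177 nt held 24.6% of reads in rpb4Δ and 46.1% in ubp8Δ, yet all reads of both strains lay between 101 and 200 nt and the averages differed by 3.30 ± 0.70 nt. The opposite is seen in PSF1, where the site at 89 nt held 86.1% of reads in rpb4Δ (75.9 to 93.1) and 58.1% in ubp8Δ (53.6 to 62.5). RFA1 had a single site in rpb4Δ, at 73 nt with all 21 reads, and the same position held 81.4% in ubp8Δ. The overlap of the profiles, the summed smaller share over all positions, had a median of 63.0% over the 31 genes, beside 65.7% over all ORFs.

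The number of poly(A) sites per gene, counting each nucleotide with at least 1 read, had a median of 12 in rpb4Δ and 17 in ubp8Δ over the 31 genes, beside 13 in rpb4Δ and 19 in ubp8Δ over all ORFs. The profiles differ in depth, and at an equal number of reads the medians for the 31 genes were 12 in rpb4Δ and 13.3 in ubp8Δ. The most sites in rpb4Δ were found in PSF2 (26), PRI1 (23) and POL31 (22), for which ubp8Δ had 24.5, 18.2 and 18.9 at the same number of reads. The fewest were found in RFA1, with 1 site in rpb4Δ and 3 in ubp8Δ, although a gene with few reads can show few sites. When only nucleotides holding 5% or more of the window reads were counted, the median was 5 in both strains.

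The letters TATATA, a form of the yeast efficiency element, were found in the 100 nt upstream of the highest position in 13 of 31 genes (41.9%) in rpb4Δ and in 12 (38.7%) in ubp8Δ, searched on the strand of the gene only. Over all ORFs they were found in 45.0% in rpb4Δ and 43.6% in ubp8Δ. AATAAA, a form of the positioning element, was found in 5 genes (16.1%) in rpb4Δ and 6 (19.4%) in ubp8Δ, beside 18.8% of all ORFs in each strain. In POL3 a TATATA ended 27 nt upstream of the site at 109 nt that was highest in rpb4Δ and 41 nt upstream of the site at 123 nt that was highest in ubp8Δ. All 3 GINS genes that could be compared had the element, and none of the 3 MCM genes did. A match of letters is a description of the sequence and not of a working element.

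Many replication genes had poly(A) reads inside the coding sequence, more so in ubp8Δ. The share of reads inside the ORF, of all reads in the ORF and the window, was compared for the 36 genes with at least 20 such reads in both strains. Its median was 4.14% in rpb4Δ (order-statistic interval 1.15 to 22.6) and 19.4% in ubp8Δ (7.47 to 33.3). Over all ORFs the median was 3.39% in rpb4Δ and 11.6% in ubp8Δ. Each interval holds the value of all ORFs in the same strain. The replication genes are therefore not shown to differ from all ORFs in this share. The share was higher in ubp8Δ for 28 of 36 genes (77.8%), beside 75.2% of all 4603 ORFs compared, so this direction was that of the whole profile. The replication genes are longer, with a median ORF of 1716 nt against 1206 nt. Per length, the signal inside the ORF had a median of 1.19 RPM per kb in rpb4Δ and 3.52 RPM per kb in ubp8Δ, below the 1.95 RPM per kb in rpb4Δ and 5.39 RPM per kb in ubp8Δ of all ORFs.

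**Figure D5:**
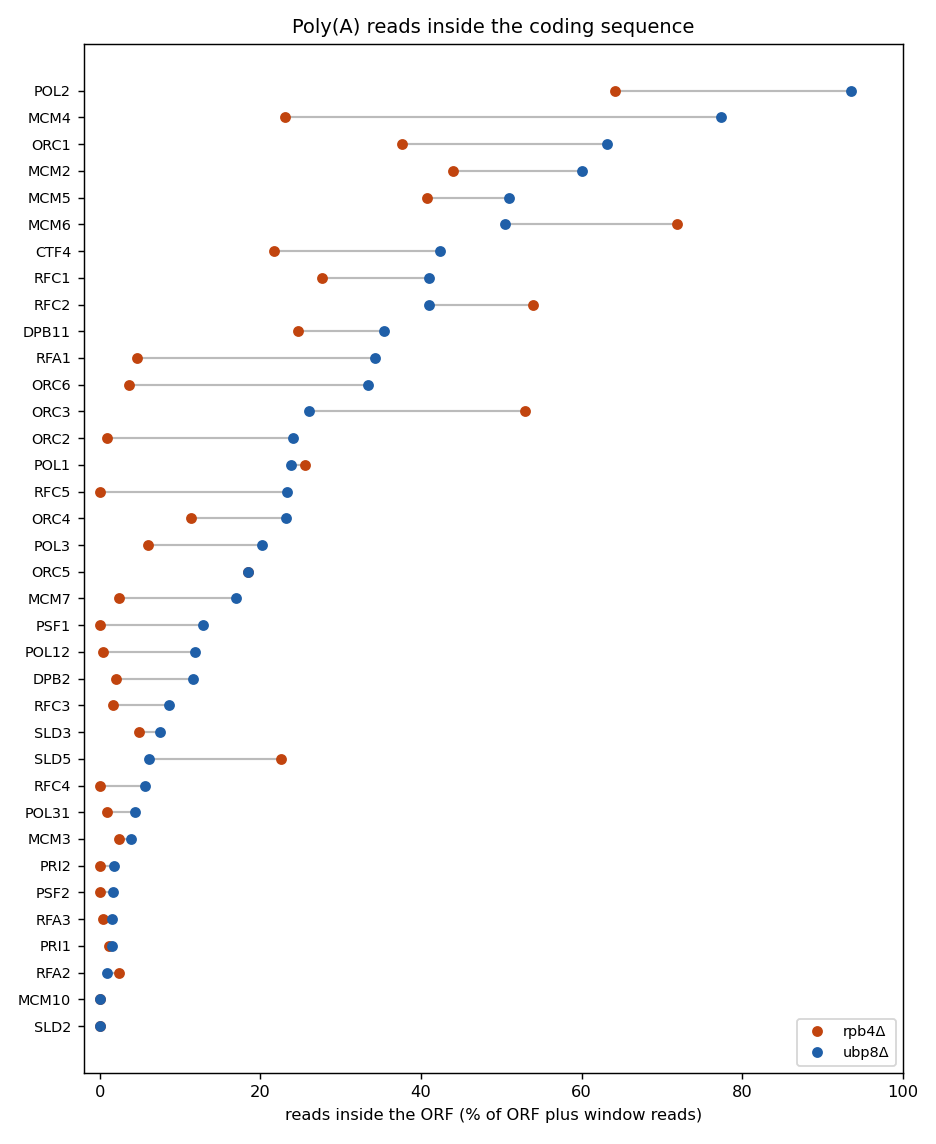
Percent of poly(A) reads that lie inside the ORF in rpb4Δ and ubp8Δ for the 36 replication genes with at least 20 reads in both strains, ordered by the value in ubp8Δ. The ubp8Δ point is to the right in 28 genes, most widely in MCM4, and the rpb4Δ point is to the right in 6, among them MCM6, ORC3 and SLD5.

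MCM4 had the widest difference. In rpb4Δ 24 reads lay inside its ORF at 3 positions (23.1% of reads, exact binomial 95% interval 15.4 to 32.4), against 1210 reads at 51 positions in ubp8Δ (77.4%, 75.2 to 79.4). In RPM this was 9.48 in rpb4Δ and 74.3 in ubp8Δ, whereas the window after the stop codon had 31.7 RPM in rpb4Δ and 21.7 RPM in ubp8Δ. The log2 ratio of MCM4 was thus 0.54 over the window and -1.22 with the ORF added. POL2, the longest gene of the set, had 64.2% of reads inside its ORF in rpb4Δ (51.5 to 75.5) and 93.5% in ubp8Δ (91.5 to 95.2). ORC1 followed, with 37.6% in rpb4Δ (27.4 to 48.8) and 63.2% in ubp8Δ (59.2 to 67.0).

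Most other genes also had the lower share in rpb4Δ. ORC6 had 3.64% of reads inside the ORF in rpb4Δ and 33.3% in ubp8Δ, RFA1 had 4.55% in rpb4Δ and 34.3% in ubp8Δ, and ORC2 had 0.84% in rpb4Δ and 24.1% in ubp8Δ. RFC5 had 0 of 54 reads inside the ORF in rpb4Δ, which allows a share of up to 5.56%, and 23.3% in ubp8Δ (18.8 to 28.2). MCM2 and MCM5, 2 of the low helicase subunits, had 44.0% and 40.7% in rpb4Δ and 60.0% and 50.9% in ubp8Δ, from 25 and 27 reads in rpb4Δ.

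In 6 genes the share inside the ORF was higher in rpb4Δ. ORC3 had 54 of 102 reads there (52.9%, 42.8 to 62.9) in rpb4Δ and 84 of 323 reads (26.0%, 21.3 to 31.2) in ubp8Δ. MCM6 had 72.0% (57.5 to 83.8) in rpb4Δ and 50.4% (46.4 to 54.4) in ubp8Δ. SLD5 had 22.6% (14.6 to 32.4) in rpb4Δ and 6.13% (4.11 to 8.73) in ubp8Δ. RFC2 had 53.8% (33.4 to 73.4) in rpb4Δ and 41.2% (27.6 to 55.8) in ubp8Δ, with overlapping intervals, and the last pair, POL1 and RFA2, differed by less than 2 percentage points. SLD2 and MCM10 had no read inside the ORF in either strain, which allows shares of up to 2.88% and 3.49% in rpb4Δ and up to 0.451% and 0.275% in ubp8Δ.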

How the data were processed

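3′ READS profiles of rpb4Δ and ubp8Δ cells, grouped by the GEO labels, were used, with 1 pooled profile of 2 replicates per strain. The NET-seq libraries were not used. Per the study's methods, the authors removed the Ts at the start of read 1 and recorded their number. The 17 bases that followed were mapped with bowtie (version not given in the sources used here) to the SacCer3 genome, with no mismatch and only 1 match allowed. Reads were retained where some As were untemplated. The authors deposited RPM for the window of 400 nt, for its highest position and for the ORF, and each position as a percent of the highest one. Whole reads were recovered here from the RPM step of the highest position: 4199 of 4199 values below 50 RPM in rpb4Δ and 4437 of 4437 in ubp8Δ were whole within 0.1 of a step. A count test needs replicates and was not run. The deposited number of ORF positions with reads was used as given.

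ORFs were compared where each strain had 20 or more window reads. Ratios have exact binomial intervals, levels exact Poisson intervals, medians order-statistic intervals, and positions an SE from the reads. A gene was called at a 2-fold difference or at 10 nt. All values were computed in Python 3.11.15 (numpy 2.4.6, pandas 2.3.3, scipy 1.17.1, matplotlib 3.10.9), and the functions were tested on simulated data. Sequences, neighbouring genes and motifs came from RefSeq R64, where the coordinates of 5787 ORFs equalled those deposited, out of 5795 matched by name.

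The members, gene lists and rules were chosen with earlier results of these data known. Levels are given for all members. Fuller values are given for the 3 highest and 3 lowest levels, the 4 largest ratios and the 4 largest shifts (at least 50 reads) in each direction, the 3 genes with most sites and the 3 with the highest share inside the ORF in each strain. Other genes were named after their values were seen. Alternatives were other scalings, read minimums, position measures, windows and definitions of a site. A search for ACGCGT in promoters was planned and not run, because no promoter table was used here.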

Additional observations from a re-analysis of the deposited data

How the results depend on the processing

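No paired analysis was possible because the replicates of each strain were pooled before deposit, and no replicate could be left out for the same reason. The median log2 ratio of 0.06 was -0.086 when centred on all ORFs and -0.11 with reads inside the ORF added. The count of genes 2-fold lower in rpb4Δ, 0, was 1 under each of these settings and 3 with at least 1 read. Over all ORFs this share was 14.4% when centred, 16.1% with the ORF added and 17.7% with at least 1 read. The count of 2-fold higher genes, 4, was 2 with at least 50 reads, beside 19.2% of all ORFs. Counts of genes shifted by 10 nt, 8 upstream and 8 downstream in rpb4Δ, were 5 and 5 for the weighted median, beside 14.0% and 12.0% of all ORFs. For the highest position they were 5 and 4, beside 13.9% and 12.9% of all ORFs. With positions on or directly before a genomic A left out, which left 14 genes, they were 3 and 3, beside 22.1% and 16.9% of all ORFs. The downstream count was 5 over positions 1 to 300, beside 16.5% of all ORFs. It was also 5 without genes that have a same-strand neighbour in the window, beside 19.6% of all ORFs. Sites of at least 5% of reads numbered 5 per gene in both strains. With the ORF added, 6 of 31 ratios changed sign: POL2 to -0.72, MCM4 to -1.22, ORC1 to -0.15, ORC6 to -0.48, POL3 to -0.13 and DPB11 to -0.075. Shifts of at least 10 nt that changed direction were as follows. SLD5 shifted by -2.01 nt and DPB11 by 0.28 nt over positions 1 to 300. DPB11 shifted by 9 nt and ORC5 by 17 nt at the highest position. PSF2 shifted by -8.79 nt and DPB2 by -2.38 nt with positions on or directly before a genomic A left out. Windows ended at the next gene, chosen after seeing the data, gave DPB11 a shift of 0.28 nt. The cause was not tested. Depth limits the rpb4Δ profile most, where 10 genes had fewer than 20 window reads.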

Other observations

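Beside the 41 genes, 20 other genes of DNA replication were looked up from a list of accessory factors, and 17 had at least 20 window reads in both strains. Their median log2 ratio was 0.51 (order-statistic interval -0.20 to 0.94), against 0.06 for the 31 replication genes above and 0.15 for all ORFs. That interval holds 0.06 and 0.15, so the 17 genes are not shown to differ from either set. CTF18, the large subunit of the alternative clamp loader, had 74.0 RPM in rpb4Δ (187 reads) and 21.6 RPM in ubp8Δ (351 reads), a log2 ratio of 1.78 ± 0.13 (counting SE). Its partner CTF8 was lower in rpb4Δ, with 480 RPM in rpb4Δ and 829 RPM in ubp8Δ (-0.79 ± 0.04). DPB4, a small subunit of polymerase ε, had 456 RPM in rpb4Δ and 147 RPM in ubp8Δ (1.64 ± 0.05), while DPB3, its histone-fold partner, had 25.3 RPM in rpb4Δ and 47.3 RPM in ubp8Δ (-0.90 ± 0.19). RNH201, the catalytic subunit of RNase H2, had 92.9 RPM in rpb4Δ and 31.4 RPM in ubp8Δ (1.57 ± 0.11).

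SLD7, whose product binds Sld3, had the lowest ratio of these genes, with 22.9 RPM in rpb4Δ and 91.3 RPM in ubp8Δ (-1.99 ± 0.19), whereas SLD3 itself had a ratio of 0.17 ± 0.08. TAH11, which encodes the MCM loader Cdt1, was read almost only inside its ORF: 95.8% of its RPM lay there in rpb4Δ (185 of 193 reads) and 99.7% in ubp8Δ (1779 of 1784 reads). In its window 97 of the 400 positions end a stretch of 17 bases with further copies elsewhere in R64, and only unique matches were kept, so reads there could be missing. Like MCM4, DBF4, the regulatory subunit of the Cdc7 kinase, had a lower ORF share in rpb4Δ, at 52.4% (22 of 42 reads), and 93.1% in ubp8Δ (785 of 843 reads). These genes were named after their values had been seen.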
